A study of Mus musculus with 6 samples.

Results

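The genes examined were 10 members of the NRF2 and glutathione system, chosen by their symbols out of 46603 gene identifiers in the count files: Nfe2l2, Keap1, Hmox1, Nqo1, Gclc, Gclm, Slc7a11, Txnrd1, Srxn1 and Gsr. They were measured by poly(A) RNA sequencing in cultured EGCs (enteric glial cells), which surround and support the neurons of the gut. The cultures had been grown from neurospheres, floating clusters of progenitors, which were made from total gut tissue of embryonic day 14.5 mice of the C57BL/6J strain. After 1 week in serum-free medium with growth factors, the cells were plated and grown to confluence in medium with 10% serum. Of these cultures, 3 were left untreated (control) and 3 received lipopolysaccharide (LPS, a glycolipid of Gram-negative bacteria), 100 ng/ml over 12 h. The study sequenced such EGCs in its work on how they act on monocytes, and no separate aim is given for the LPS cultures in the sources used here.

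NRF2, the protein of Nfe2l2, is a transcription factor that turns on genes for antioxidant defence. At rest the adaptor protein KEAP1 holds it for ubiquitination and breakdown. Oxidants and reactive metabolites modify cysteines of KEAP1, after which NRF2 accumulates, pairs with a small MAF protein and binds the antioxidant response element in the DNA of its targets. Many of these targets make, import or regenerate glutathione and thioredoxin, the main thiol reductants of the cell. LPS is known to drive several of them in macrophages.

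Total counts ran from 18775316 to 23664312 per library, and the lowest count of a member in any library was 208, so all 10 members passed the filter on low counts without help from the LPS group. The cultures were mixed. All 7 glial markers examined were above the 3-count floor in every library, with Sox10 at 73.8 to 101 CPM (counts per 1000000 counts of the normalized library) over the 6 libraries. Of these, S100b, a calcium-binding protein of glia, was called lower in LPS, at 24.7, 20.5 and 21.4 CPM in control and 4.94, 3.46 and 9.37 CPM in LPS (log2 fold change -1.91, edgeR adjusted p = 0.0238), and the other 6 were not called. Its part in the results was not tested. The glial markers summed to 330 to 456 CPM per library, and 6 mesenchymal markers to 14780 to 15720 CPM. Of these 6, Pdgfra and Dcn were called higher in LPS (log2 fold changes 0.50 and 0.90, edgeR adjusted p = 0.011 and 0.012), and 4 were not called. Smooth muscle markers were also abundant. The 8 examined, whose sum was 2449 to 2691 CPM in control and 689 to 964 CPM in LPS, were all called lower. The part of these differences in the results was not tested. In both groups the library numbered 3 stood apart from the libraries numbered 1 and 2. A chi-square of counts per degree of freedom, which is 1 for sampling noise, was 7.11 between control replicates 1 and 2 and 67.1 to 91.7 between these and control replicate 3. Among the LPS libraries it was 7.38 between replicates 1 and 2 and 123 to 144 against replicate 3. The summed level of 12 macrophage markers in control was 3987, 5146 and 12140 CPM for replicates 1, 2 and 3, and in LPS it was 3982, 5165 and 19660 CPM. Of the 12 markers, 11 were above the floor in every library. Lyz2 alone made up 2888 CPM of the sum in control replicate 1, and single markers moved apart. Adgre1 was the only one called, higher, at 159, 229 and 472 CPM in control and 952, 1261 and 3700 CPM in LPS (log2 fold change 2.78, edgeR adjusted p = 0.0452). Mrc1 was at 197, 331 and 752 CPM and at 9.29, 10.4 and 131 CPM and was not called (log2 fold change -3.08, edgeR adjusted p = 0.145). Other sums differed for number 3 too. Replicates 1, 2 and 3 had 412, 410 and 244 CPM of 6 neuronal markers in control and 381, 400 and 259 CPM in LPS. The sum of 10 cell cycle markers was 432, 504 and 859 CPM in control and 376.5, 322 and 312 CPM in LPS. All 10 had log2 fold changes below 0 (median -0.83) and none was called. Members are therefore given with and without the libraries numbered 3 where this matters. The part of macrophage, neuronal or cell cycle RNA in their levels was not tested. In such bulk libraries a change in the number of cells of a type cannot be told apart from a change of RNA per cell.

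The promoters of the members are shown first, because NRF2 acts on its targets through a short DNA element. RefSeq windows of 250 bases upstream of the annotated start (GRCm38.p6) were found for 7 members, 9 windows in all since Txnrd1 has 3 starts, and Hmox1, Gclc and Gsr were not among them. The core of the antioxidant response element, TGACNNNGC on either strand, lay in windows of 3 members: Nfe2l2, Gclm and Txnrd1. The element was TGACTCCGC at bases -240 to -232 of Nfe2l2, TGACGGTGC on the opposite strand at -134 to -126 of Gclm and TGACAAAGC on the opposite strand at -92 to -84 of the second Txnrd1 start. Of all 32851 promoter windows of this length, 10.2% held the core. The looser form TGANNNNGC lay in windows of 6 of the 7 members, all but Nqo1, and in 35.2% of all windows. An AP-1 site, TGANTCA, reads the same on both strands and was present in Srxn1 alone among the 7, at -102 to -96 and at -45 to -39, against 6.75% of all windows. The second of these overlaps the looser element. After the sequences had been read, TGATGNAA, an element of the kind bound by the amino acid stress factor ATF4, was searched too. It was present in 3.45% of all windows and, among the members, in Slc7a11 alone, at -66 to -59 and, on the opposite strand, at -47 to -40. Such a match is a match of letters only. Bases outside these windows were not searched, so the lack of a match, as in Nqo1, says nothing about elements farther away.

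The upstream windows of Slc7a11 (chr3:50443614-50443863, minus strand), Gclm (chr3:122245307-122245556, plus strand) and Srxn1 (chr2:152105274-152105523, plus strand) are printed because each holds another of the elements searched. Each runs from 5′ to 3′ in the direction of its gene. Capitals mark the ATF4-type elements in Slc7a11, the antioxidant response core in Gclm and the AP-1 sites in Srxn1.
Slc7a11: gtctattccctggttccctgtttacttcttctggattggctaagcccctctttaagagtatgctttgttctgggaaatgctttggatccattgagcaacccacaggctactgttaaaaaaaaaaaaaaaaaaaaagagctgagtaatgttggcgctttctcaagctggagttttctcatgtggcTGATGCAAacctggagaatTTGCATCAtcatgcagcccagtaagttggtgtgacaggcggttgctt
Gclm: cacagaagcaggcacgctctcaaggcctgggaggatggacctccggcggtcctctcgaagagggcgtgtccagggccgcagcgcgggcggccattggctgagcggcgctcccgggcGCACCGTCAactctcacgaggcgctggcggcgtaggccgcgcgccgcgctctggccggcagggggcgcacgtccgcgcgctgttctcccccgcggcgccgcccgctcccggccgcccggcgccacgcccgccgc
Srxn1: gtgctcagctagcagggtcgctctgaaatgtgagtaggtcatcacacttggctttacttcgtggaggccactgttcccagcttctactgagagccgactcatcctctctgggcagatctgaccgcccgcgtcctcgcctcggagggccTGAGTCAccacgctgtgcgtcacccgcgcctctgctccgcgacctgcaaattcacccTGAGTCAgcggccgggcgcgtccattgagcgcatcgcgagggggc

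After LPS, 4 of the 10 members rose and none fell. The 4 were Slc7a11, Hmox1, Gsr and Keap1, with fold changes of 16.3, 3.06, 2.89 and 1.34. At an unadjusted p under 0.05 in edgeR 7 were higher and 0 lower, against 16.1% and 16% of all genes. DESeq2 and limma-voom also called 0 lower, against 11% and 6.05% of all genes. Across all 15226 genes tested with the edgeR quasi-likelihood test, 9.09% were called higher at an adjusted p under 0.05, 6.71% lower and 15.8% in either direction. All 10 members had a log2 fold change above 0, as did 48.0% of all genes tested, and the median of the members was 0.62 against -0.02 for all genes. In 7 members all 3 LPS libraries lay above all 3 control libraries, a separation seen in 19.3% of all genes. In 0 members they all lay below, against 19.4% of all genes. The groups of Nqo1, Gclc and Srxn1 overlapped. The members were chosen with earlier results of these data known, so the shares of all genes are set beside them as description only.

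**Figure D1:**
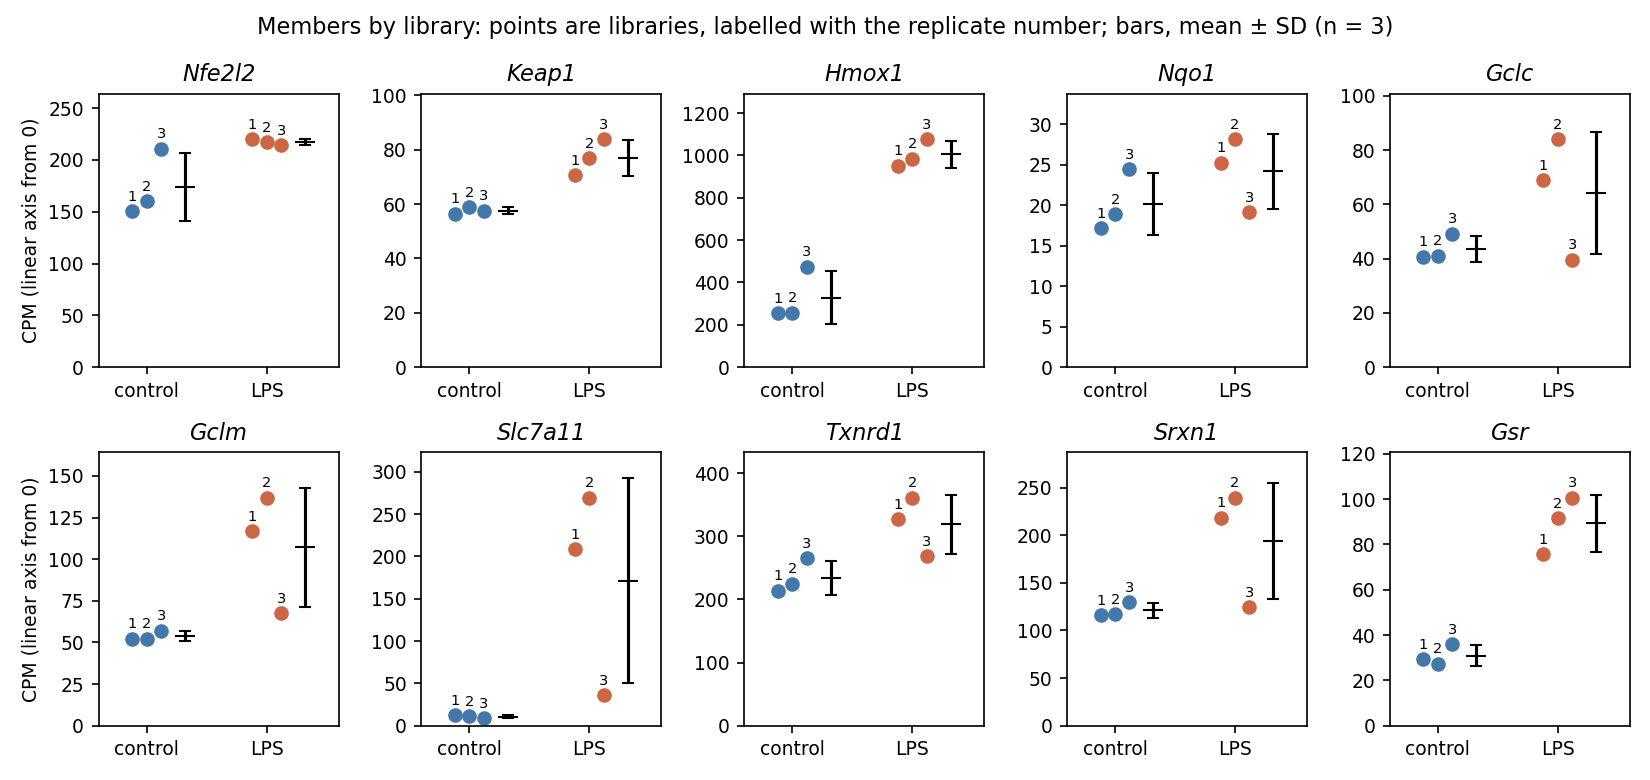
CPM of the 10 members (vertical axis, linear from 0) in the control and LPS libraries. Each point is 1 library labelled with its replicate number, and bars give mean ± SD (n = 3). LPS replicate 3 is the lowest LPS library in 7 members and the highest in Keap1, Hmox1 and Gsr.

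The transcription factor and its sensor showed small differences, of which that of Keap1 was called. Nfe2l2 (ENSMUSG00000015839, chr2:75675513-75704641, minus strand, GRCm38) was at 151, 160 and 211 CPM in control replicates 1, 2 and 3 and at 220, 217 and 214 CPM in LPS replicates 1, 2 and 3. Control replicate 3 thus reached nearly the LPS level, and the LPS libraries hardly differed from each other. The log2 fold change of 0.32 (SE 0.14) was not called (edgeR adjusted p = 0.175), but without control replicate 3 it was 0.50 (edgeR adjusted p = 0.0187). Keap1 (ENSMUSG00000003308, chr9:21229730-21239361, minus strand) rose from 56.4, 58.8 and 57.5 CPM to 70.6, 76.8 and 83.9 CPM, with no overlap. Its log2 fold change was 0.42 (SE 0.08, edgeR adjusted p = 0.0259). The Keap1 call was lost with library size alone as the scaling (log2 fold change 0.26, edgeR adjusted p = 0.0548). It was also lost without control replicate 1, 2 or 3 or LPS replicate 2 (edgeR adjusted p = 0.0511 to 0.106).

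Slc7a11 had the largest change. It encodes the cystine-importing subunit of the exchanger xCT, and cystine uptake supplies the cysteine from which glutathione is built. Slc7a11 (ENSMUSG00000027737, chr3:49892526-50443614, minus strand) was at 12.0, 10.9 and 8.60 CPM in control replicates 1, 2 and 3 and at 208, 270 and 36.3 CPM in LPS replicates 1, 2 and 3. Every LPS library was above every control library, but LPS replicate 3 held far less than the other two. The log2 fold change was 4.03 (SE 0.75, edgeR adjusted p = 0.0221). Within same-numbered libraries the LPS level was 17.3, 24.6 and 4.22 times the control level for numbers 1, 2 and 3. The call was lost in 5 of the 6 fits that left out 1 library, all but the one without LPS replicate 3 (edgeR adjusted p = 0.0585 to 0.106). Without LPS replicate 3 the log2 fold change was 4.50 (SE 0.19, edgeR adjusted p = 0.000291). The limma-voom test did not call it (adjusted p = 0.0654).

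Glutamate-cysteine ligase, which joins cysteine to glutamate in the rate-limiting step of glutathione synthesis, consists of a catalytic subunit (Gclc) and a modifier subunit (Gclm). Gclm (ENSMUSG00000028124, chr3:122245557-122270732, plus strand) was at 52.2, 52.2 and 57.2 CPM in control and 117, 137 and 67.5 CPM in LPS. The groups did not overlap, and the log2 fold change of 0.99 (SE 0.26) fell just short of a call (edgeR adjusted p = 0.0520). With the replicate number as a block Gclm was called (log2 fold change 0.94, edgeR adjusted p = 0.0476), as it was with DESeq2 (1.01, adjusted p = 0.00383). In all, 4 of the 15 alternatives called it. It was not called with limma-voom (adjusted p = 0.0719), upper-quartile factors or library size alone (edgeR adjusted p = 0.074 and 0.075). Of the fits that left out 1 library, only the one without LPS replicate 3 called it (edgeR adjusted p = 0.00159). Gclc (ENSMUSG00000032350, chr9:77754535-77794485, plus strand) was at 40.8, 41.1 and 49.2 CPM in control and 68.9, 84.0 and 39.6 CPM in LPS. LPS replicate 3 lay below all controls, and no call was made (log2 fold change 0.55, SE 0.28, edgeR adjusted p = 0.227).

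Levels of these partners can be set against each other only per length. Per kilobase of exon, the ratio of Gclc to Gclm was 1.30, 1.31 and 1.44 in control and 0.985, 1.02 and 0.979 in LPS. All LPS ratios were lower, including that of LPS replicate 3, in which both subunits were at their lowest among the LPS libraries. An exact permutation test (two-sided, 20 splits) gave p = 0.1, the smallest p that 3 against 3 libraries allow.

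Glutathione reductase, Gsr, returns oxidized glutathione to its reduced form with NADPH. Gsr (ENSMUSG00000031584, chr8:33652523-33698163, plus strand) rose from 29.4, 27.4 and 36.0 CPM to 75.8, 91.7 and 101 CPM. Here LPS replicate 3 was the highest library, in contrast to Slc7a11 and the ligase subunits. The log2 fold change was 1.53 (SE 0.15, edgeR adjusted p = 0.00330). Of the 4 called members, Gsr alone stayed called under all 15 alternatives (edgeR, limma-voom or DESeq2 adjusted p = 2.36e-14 to 0.0261).

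Hmox1, heme oxygenase 1, breaks heme down to biliverdin, iron and carbon monoxide and was the most abundant member per kilobase in both groups. Hmox1 (ENSMUSG00000005413, chr8:75093621-75100589, plus strand) rose from 256, 257 and 474 CPM to 951, 985 and 1077 CPM. Control replicate 3 was well above the other controls, while the LPS libraries lay close together. The log2 fold change was 1.61 (SE 0.27, edgeR adjusted p = 0.0162). The call was lost without control replicate 1 or 2 or LPS replicate 1 or 2 (edgeR adjusted p = 0.0559 to 0.0788). Without control replicate 3 the log2 fold change was 1.99 (SE 0.10, edgeR adjusted p = 0.00132).

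The thioredoxin branch is represented by Txnrd1 and Srxn1. Txnrd1, thioredoxin reductase 1, is a selenoprotein that reduces thioredoxin with NADPH. Txnrd1 (ENSMUSG00000020250, chr10:82833951-82897712, plus strand) was at 214, 225 and 265 CPM in control and 328, 361 and 269 CPM in LPS. The groups were separated by a narrow gap between both libraries numbered 3, and the log2 fold change of 0.44 (SE 0.14) was not called (edgeR adjusted p = 0.0919), though DESeq2 called it (adjusted p = 0.0395). Srxn1, sulfiredoxin, repairs overoxidized peroxiredoxins. Srxn1 (ENSMUSG00000032802, chr2:152105516-152111376, plus strand) was at 116, 117 and 129 CPM in control and 218, 239 and 124 CPM in LPS. LPS replicates 1 and 2 were far above the controls, LPS replicate 3 was among them, and no call was made (log2 fold change 0.68, SE 0.25, edgeR adjusted p = 0.119). Per kilobase, the ratio of Txnrd1 to Gsr, the reductases of the thioredoxin and glutathione branches, was 2.82, 3.19 and 2.86 in control and 1.68, 1.53 and 1.04 in LPS. It was lower in every LPS library (exact permutation test, two-sided, p = 0.1, the smallest possible).

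Nqo1, a quinone reductase and a textbook readout of NRF2 activity, was the member with the smallest change. Nqo1 (ENSMUSG00000003849, chr8:107388225-107403206, minus strand) was at 17.1, 18.9 and 24.4 CPM in control and 25.3, 28.1 and 19.1 CPM in LPS. The groups overlapped, with LPS replicate 3 below control replicate 3, and the log2 fold change was 0.26 (SE 0.20, edgeR adjusted p = 0.416).

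Ratios within same-numbered libraries differed between numbers 1 and 2 on one side and number 3 on the other for several members. For numbers 1 and 2, the LPS library exceeded its control in all 10 members, by 1.25-fold (Keap1) to 24.6-fold (Slc7a11). For number 3, Nfe2l2 and Txnrd1 were at 1.02 and 1.01 times the control level. Srxn1, Gclc and Nqo1 were at 0.959, 0.805 and 0.782 times. Slc7a11, at 4.22 times, was the highest of the 10 there too, followed by Gsr, Hmox1, Keap1 and Gclm at 2.80, 2.27, 1.46 and 1.18 times. Control replicate 3 was the highest control in 8 of the 10 members, all but Keap1 and Slc7a11. The macrophage marker sums of the libraries numbered 3 were 2.36 to 4.94 times those of the others of the same group.

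**Figure D2:**
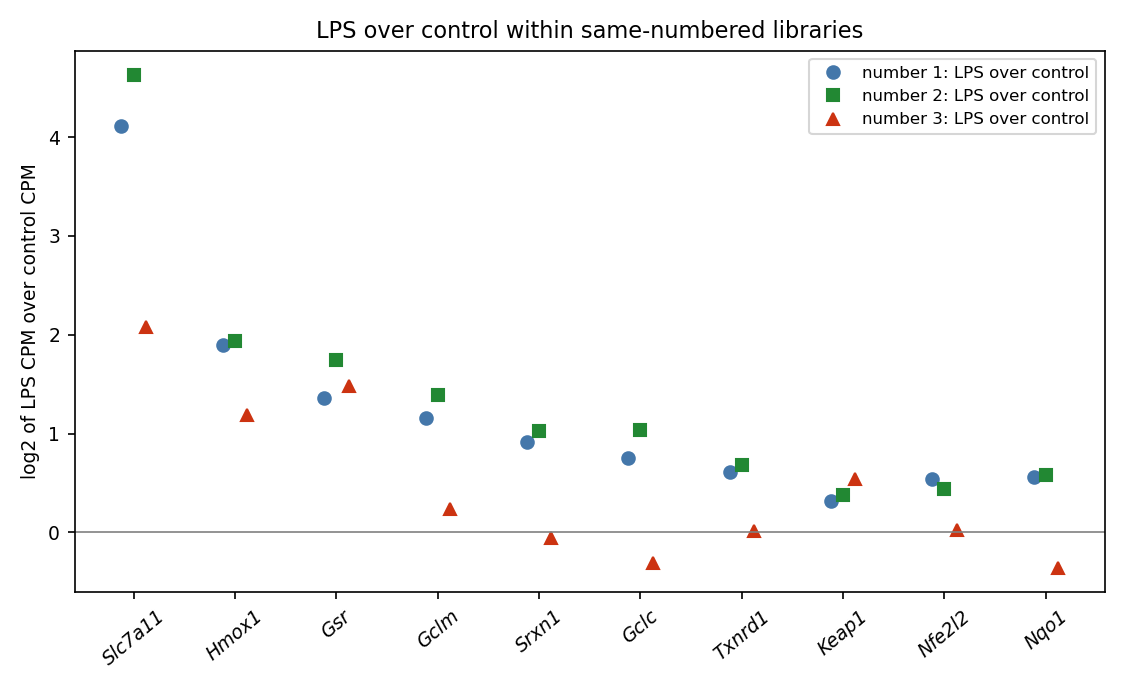
Log2 of the LPS over the control CPM within same-numbered libraries (vertical axis) for each member, ordered by fold change. The 10 members lie above 0 for numbers 1 and 2, and Srxn1, Gclc and Nqo1 lie below 0 for number 3.

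Leaving libraries out moved the number of called members more than any other choice. Without LPS replicate 3 it was 8 (12.6% of all genes called higher), all but Nfe2l2 and Nqo1. Without control replicate 2 it was 1, Gsr (2.44% of all genes). It was also 1 without control replicate 1 or LPS replicate 2, 2 without LPS replicate 1 and 3 without control replicate 3. In these 4 fits 3.03%, 3.36%, 3.98% and 7.52% of all genes were called higher. In a fit chosen after seeing the data, without both libraries numbered 3, all 10 members were called higher, while the share of all genes called higher was 22.6% and lower 20.4%. Log2 fold changes in that fit were 4.40 (SE 0.15) for Slc7a11, 1.94 (SE 0.05) for Hmox1, 1.58 (SE 0.11) for Gsr and 1.30 (SE 0.09) for Gclm. The other members lay between 0.38 (Keap1) and 0.996 (Srxn1). Their edgeR adjusted p ran from 1.8e-06 (Hmox1) to 0.00522 (Keap1), and this fit rests on 2 libraries per group. With the replicate number as a block 5 members were called, Gclm in addition (15.4% of all genes called higher and 14.9% lower). DESeq2 called 6 (13.7% of all genes higher and 11% lower).

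**Figure D3:**
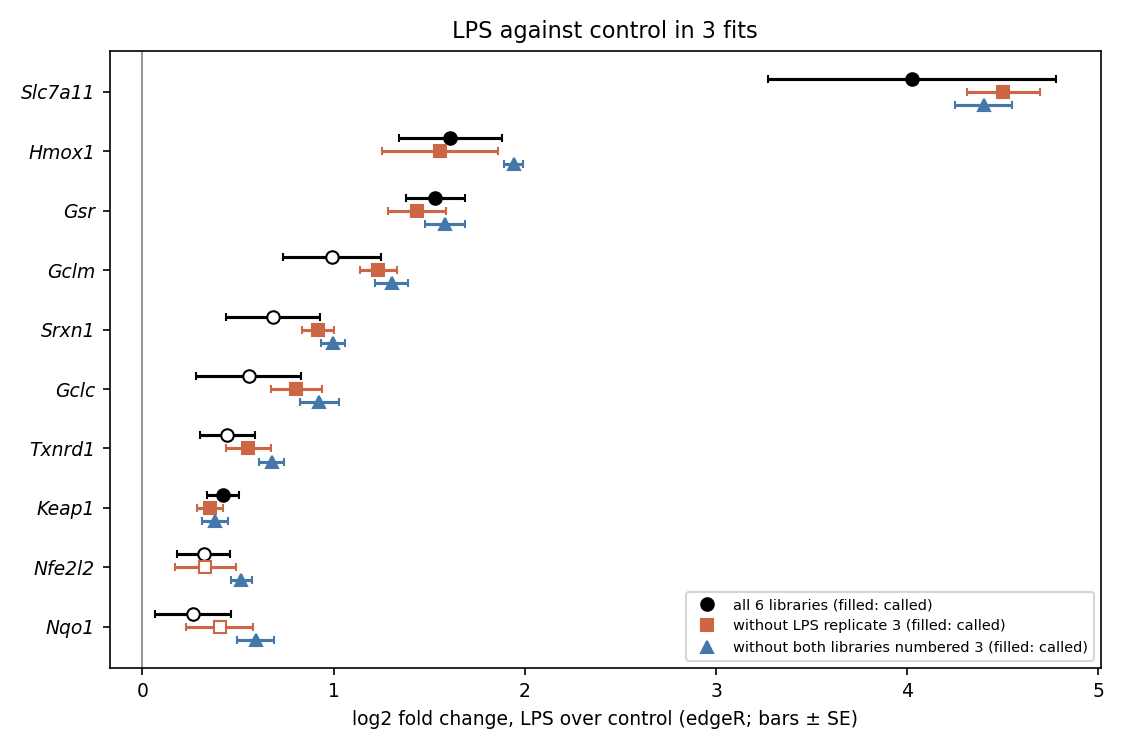
Log2 fold change of LPS over control (horizontal axis, edgeR, bars ± SE) for each member with all 6 libraries, without LPS replicate 3 and without both libraries numbered 3. Filled symbols are called at an adjusted p under 0.05. The members called number 4, 8 and 10 in the 3 fits.

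Per kilobase of exon, the members spanned a wide range of levels in the control libraries. Hmox1 led with 188 ± 71.7 CPM per kilobase (SD, n = 3), followed by Nfe2l2 (45.8 ± 8.52), Srxn1 (42.9 ± 2.65) and Txnrd1 (33.1 ± 3.83, SD, n = 3 each). Nqo1, Keap1, Gclc and Gsr followed with means from 11.2 to 13.0 CPM per kilobase, and each overlapped its neighbour in this order. Gclm (8.57 ± 0.45) and Slc7a11 (0.756 ± 0.126, SD, n = 3 each) were lowest and did not overlap with their neighbours. Nfe2l2 and Srxn1 overlapped in the controls. Under LPS, Gsr moved from place 8 to place 5 at 32.5 ± 4.59 CPM per kilobase (SD, n = 3). Gclc, Gclm, Keap1, Nqo1 and Slc7a11 followed with means from 12.3 to 17.0 CPM per kilobase. Their ranges overlapped, so places 6 to 10 under LPS were not separated, and Srxn1 overlapped Nfe2l2. Slc7a11 spread most widely among these 5, from 2.6 to 19.4 CPM per kilobase. The ratio of Nfe2l2 to Keap1 per kilobase was 3.73 ± 0.69 in control and 3.50 ± 0.35 in LPS (SD, n = 3 each), which overlapped.

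Genes whose pattern over the 6 libraries was most like that of Slc7a11 were Pnrc1, Cd44 and Jmjd6, with Pearson r of 0.9991, 0.9988 and 0.9985 on log2 CPM, out of 11479 genes with a mean of at least 5 CPM. Cd44, for example, was at 287, 276 and 264 CPM in control and 566, 571 and 365 CPM in LPS. For Hmox1 they were Hsd17b12, Sgk1 and Eif3b (r = 0.9984, 0.9978 and 0.9974), and for Gsr they were Slc35b1, Smyd5 and Abcb1a (r = 0.9980, 0.9975 and 0.9975). These values describe 6 libraries that share a split into groups.

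Partners and regulators of NRF2 were examined next. The calls with all 6 libraries in this and the following lists stand against 9.09% higher and 6.71% lower among all genes, and counts from other fits against the shares of those fits. Some lists share genes, such as Txn1, Prdx1, Slc48a1, Gstm1, Abcc1 and Gsta4. Without repeats, 20 of 98 tested list genes were called higher and 6 lower. Of 11 genes in this list, 2 were called higher and 0 lower by edgeR, and the median log2 fold change was 0.17. At an unadjusted p under 0.05, 4 were higher and 0 lower (16.1% and 16% of all genes). DESeq2 and limma-voom called 0 lower (11% and 6.05%). Maff, a small MAF protein, rose from 31.0, 27.5 and 23.8 CPM to 97.9, 105 and 42.8 CPM (log2 fold change 1.58, SE 0.35, edgeR adjusted p = 0.0348). LPS replicate 3 was again the lowest LPS library. Nfe2l1, a relative of NRF2 that controls proteasome genes, rose by 0.33 on the log2 scale (edgeR adjusted p = 0.0334). Bach1, a repressor that competes with NRF2 at Hmox1, was at 80.0 to 109 CPM in control and 84.0 to 99.8 CPM in LPS (log2 fold change -0.02). Sqstm1 encodes p62, which binds KEAP1. It was at 610, 607 and 578 CPM in control and 1150, 1182 and 661 CPM in LPS and was not called (log2 fold change 0.74, edgeR adjusted p = 0.0846). No gene of the list was called higher in 4 of the 6 fits that left out 1 library, those without control replicate 1 or 2 or LPS replicate 1 or 2, whereas 4 were with the block (15.4% of all genes).

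Other NRF2 targets formed a longer list. Of 23 tested genes of 26 listed, 10 were called higher and 1 lower, with a median log2 fold change of 0.56. Gstm1, a glutathione transferase, went from 74.7, 70.9 and 46.3 CPM to 442, 455 and 107 CPM (log2 fold change 2.39, SE 0.57, edgeR adjusted p = 0.0419). The log2 fold changes of Fth1, the ferritin heavy chain, and Abcc1, an exporter of glutathione conjugates, were 1.65 and 1.37 (edgeR adjusted p = 0.0186 and 0.0173). Tkt, Pgd and G6pdx of the NADPH-producing pentose phosphate pathway rose by 0.39, 0.88 and 0.84 on that scale. Ugdh, which makes UDP-glucuronate, rose by 0.67. The exception was Gsta4, a transferase for lipid aldehydes, which fell from 13.2, 11.6 and 10.7 CPM to 2.72, 1.90 and 2.30 CPM (log2 fold change -2.35, SE 0.19, edgeR adjusted p = 0.00169). In fits that each left out control replicate 1, control replicate 2 or LPS replicate 2, 2 genes of the list were called higher (3.03%, 2.44% and 3.36% of all genes), and without LPS replicate 1 it was 3 (3.98%). With the block 14 were called higher and 2 lower (15.4% and 14.9% of all genes). Without both libraries numbered 3 the numbers were 17 higher and 2 lower, where 22.6% and 20.4% of all genes were called. Transferases, Fth1, Prdx1 and Txn1 have close relatives or processed copies in the genome, and the treatment of shared reads was not given in the sources used here, so their counts are uncertain.

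**Figure D4:**
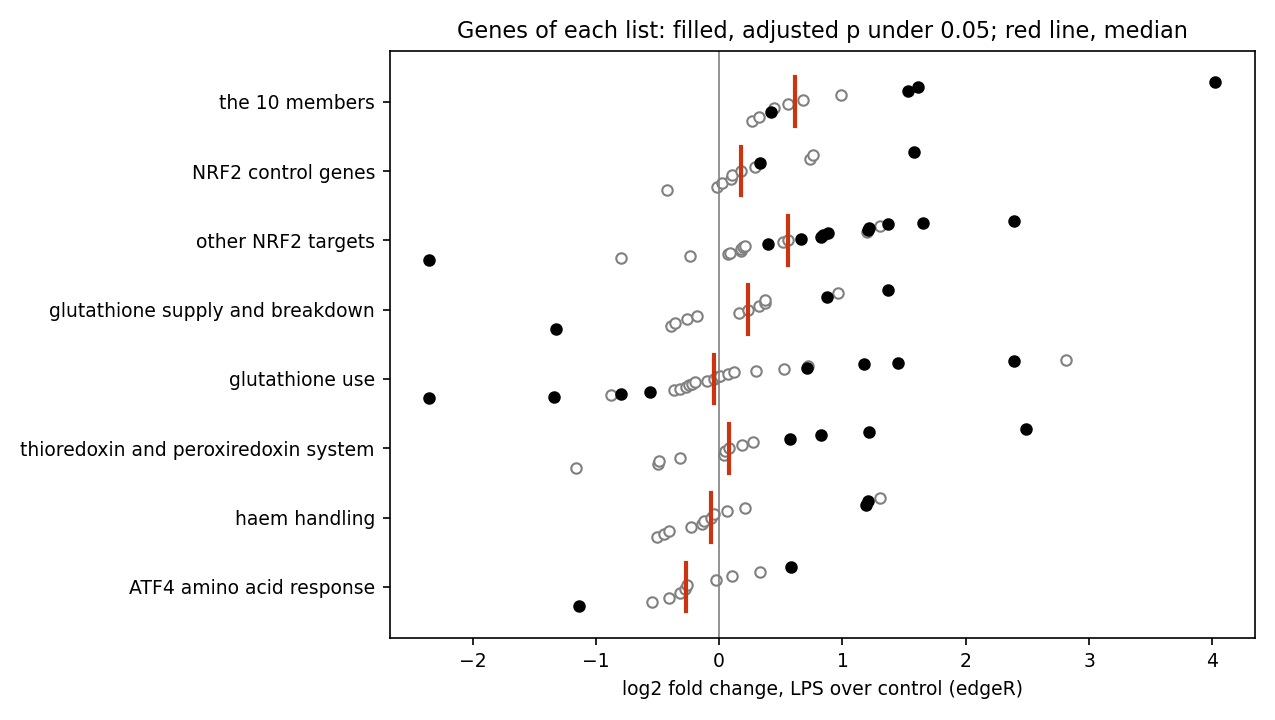
Log2 fold change of LPS over control (horizontal axis, edgeR) of each tested gene in the members and 7 pathway lists (rows). Filled points are called at an adjusted p under 0.05 and red lines are medians. Some genes are in more than 1 list, and members and lists were chosen with earlier results of these data known. The medians of the members and of the other NRF2 targets, 0.62 and 0.56, exceed those of the 6 other lists, which run from -0.27 to 0.23.

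Of 13 tested glutathione supply and breakdown genes, 2 were called higher and 1 lower, near the 9.09% and 6.71% of all genes (median log2 fold change 0.23). Ggct, which cleaves gamma-glutamyl dipeptides, rose from 7.80, 6.86 and 7.81 to 13.8, 12.5 and 14.9 CPM (log2 fold change 0.88, edgeR adjusted p = 0.0105), and Ggt5, a gamma-glutamyltransferase, fell from 16.9, 15.1 and 12.3 to 5.04, 5.46 and 7.12 CPM (-1.33, edgeR adjusted p = 0.0115). Abcc1 was the other gene called higher. Gss, glutathione synthetase, was at 28.2 to 30.2 CPM in control and 29.9 to 43.2 CPM in LPS, and Slc3a2, the heavy chain that carries Slc7a11 to the membrane, at 158 to 229 and 188 to 299 CPM. Neither was called (edgeR adjusted p = 0.152 and 0.359). Leaving out 1 library gave 0 genes called higher without control replicate 2 and 1 without LPS replicate 1 or 2 or control replicate 1. Without control replicate 1 or 2 or LPS replicate 2, 0 genes were called lower, where 112 to 194 of all genes were. With the block, 3 genes were called lower (14.9% of all genes), and without both libraries numbered 3 it was 6 higher and 2 lower (22.6% and 20.4% of all genes).

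Of 25 genes that use glutathione, 4 were called higher and 4 lower, with a median of -0.04. Next to Gstm1, these were Gstt1, Gstt2 and Mgst1 (log2 fold changes 1.45, 1.18 and 0.71), against Gsta4, Mgst3, Gstk1 and Gpx1 (-2.35, -1.34, -0.80 and -0.56). Gpx1, the cytosolic glutathione peroxidase, fell from 233, 237 and 219 CPM to 163, 151 and 154 CPM with little spread (edgeR adjusted p = 0.00796). Gpx4, which protects membrane lipids, was at 149 to 167 CPM in control and 141 to 150 CPM in LPS and was not called. Glrx, glutaredoxin, was at 11.2, 13.3 and 32.4 CPM in control and 62.7, 59.6 and 278 CPM in LPS (log2 fold change 2.81, edgeR adjusted p = 0.0657, not called). All 4 calls of higher genes were lost without control replicate 1 or 2 or LPS replicate 1 or 2. In these fits, genes called lower numbered 3, 1, 3 and 2, where 112 to 224 of all genes were called lower. Without both libraries numbered 3 the list had 8 genes called higher and 8 lower, where 22.6% and 20.4% of all genes were called.

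In the thioredoxin and peroxiredoxin list, 4 of 13 genes were called higher and 0 lower by edgeR (median log2 fold change 0.08). At an unadjusted p under 0.05, 6 were higher and 3 lower (16.1% and 16% of all genes), and DESeq2 called 3 lower (11%) and limma-voom 0 (6.05%). Prdx5, a peroxiredoxin of mitochondria and peroxisomes, rose from 95.3, 110 and 145 CPM to 459, 645 and 864 CPM (log2 fold change 2.49, SE 0.28, edgeR adjusted p = 0.00506). Prdx1, Txn1 and Prdx6 rose with log2 fold changes of 1.21, 0.83 and 0.58 (edgeR adjusted p = 0.0144, 0.00271 and 0.0133). Txn1, thioredoxin itself, was at 163 to 176 CPM in control and 283 to 315 CPM in LPS. The mitochondrial reductase Txnrd2 had mean levels of 11.5 ± 2.14 CPM without and 11.9 ± 0.96 CPM with LPS (SD, n = 3 each). With the block, 4 genes of this list were called lower (14.9% of all genes). Leaving out control replicate 1 or 2 or LPS replicate 1 or 2 gave 2 genes called higher (2.44% to 3.98% of all genes).

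Around Hmox1, 2 of 13 genes of heme synthesis, transport and breakdown were called higher and 0 lower by edgeR (median log2 fold change -0.07). At an unadjusted p under 0.05, 3 were higher and 1 lower (16.1% and 16% of all genes), and DESeq2 and limma-voom called 0 lower (11% and 6.05%). Alas1, the first enzyme of heme synthesis, rose from 72.5, 74.6 and 72.5 CPM to 189, 168 and 145 CPM (log2 fold change 1.19, SE 0.11, edgeR adjusted p = 0.00259). Slc48a1, which carries heme out of lysosomes, rose from 146, 149 and 174 CPM to 331, 356 and 396 CPM (1.21, SE 0.11, edgeR adjusted p = 0.00258). In each of the 6 fits that left out 1 library, 2 genes of the list were called higher. With the block or with DESeq2 it was 3 (15.4% and 13.7% of all genes). Hmox2, the constitutive heme oxygenase, was at 47.9 to 70.3 CPM in control and 45.0 to 110 CPM in LPS. Blvrb, a biliverdin reductase, was at 20.4, 26.4 and 41.5 CPM and at 45.2, 65.8 and 107 CPM and was not called (log2 fold change 1.30, edgeR adjusted p = 0.0795).

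Because Slc7a11 is also a known target of ATF4, the amino acid response was looked at as well. Of its 10 genes, 1 was called higher and 1 lower, near the 9.09% and 6.71% of all genes, with a median log2 fold change of -0.27. Atf4 itself was at 213, 211 and 201 CPM in control and 258, 284 and 244 CPM in LPS, without overlap, and was not called (log2 fold change 0.33, edgeR adjusted p = 0.0506). Ddit3, which encodes the stress factor CHOP, rose from 46.7 to 50.1 CPM in control to 68.4 to 77.5 CPM in LPS (log2 fold change 0.58, edgeR adjusted p = 0.00909). Phgdh, the first enzyme of serine synthesis, fell by 1.14 on the log2 scale (edgeR adjusted p = 0.0121). Asns, Chac1 and Trib3 had log2 fold changes of -0.27, -0.26 and -0.54 and were not called. Without control replicate 2, 0 genes of the list were called higher (2.44% of all genes). Without control replicate 1 or 2 or LPS replicate 2, 0 were called lower, where 112 to 194 of all genes were. With the block 2 genes were called higher and 4 lower (15.4% and 14.9% of all genes). Under upper-quartile scaling 3 were called lower and with library size alone 4, where 10.4% and 13.5% of all genes were.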

How the data were processed

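For 3 control and 3 LPS libraries the authors deposited unnormalized counts for each gene. According to the series text and processing notes, the authors trimmed reads (cutadapt 1.15, FastX 0.0.14), filtered them (ShortRead 1.40.0), removed contaminants (Bowtie2) and aligned them to GRCm38 with STAR 2.5.2b. The notes also name featureCounts 1.5.3. Strand setting and treatment of multiply aligned reads are not given in the sources used here. Exons of Keap1 and Gclm overlap those of 3 other genes, which held at most 17 counts in a library. The labels do not say whether cultures came from separate litters, so p-values measure the spread between these libraries.

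Genes were filtered with filterByExpr (minimum count 10, minimum total 15), scaled with TMM factors (0.918 to 1.08) and tested with the edgeR 4.0.16 quasi-likelihood F-test (R 4.3.3), two-sided, with Benjamini-Hochberg adjustment over 15226 genes. The test was checked on simulated counts. CPM use the normalized library size. SE is the absolute log2 fold change divided by the square root of F. Exon lengths and gene positions come from GENCODE M21. The floor of 3 counts lay between 0.124 and 0.167 CPM and covers counting error only.

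Alternatives were other scalings, other filters, DESeq2 1.42.0, limma-voom (limma 3.58.1), the replicate number as a block, and libraries left out. The numbers were treated as pairs, since deviations from the group means correlated between same-numbered libraries (r = 0.513, 0.334 and 0.613 for numbers 1, 2 and 3). Control 1 with LPS 2 and control 2 with LPS 1 gave 0.419 and 0.323, so the values set number 3 apart and hardly tell 1 from 2. The labels do not state what a number stands for.

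The members and lists were chosen with earlier results of these data known. All members were named. From each pathway list, the called genes with the 3 highest and 3 lowest fold changes and at least 5 CPM were named, with further members as examples. Pathway lists were NRF2 control genes, other NRF2 targets, glutathione supply and breakdown, glutathione use, the thioredoxin and peroxiredoxin system, heme handling and the ATF4 response.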

Additional observations from a re-analysis of the deposited data

How the results depend on the processing

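The 10 log2 fold changes of the members stayed above 0 under all 15 alternatives. Of the 150 values, 121 kept their call, 15 lost it and 14 gained it. Upper-quartile scaling and unadjusted library sizes moved the median of all genes from -0.02 to -0.12 and -0.18. Higher genes made up 57.5% of all calls in the reported fit. This share was 39.8% under upper-quartile scaling and 32.4% when library size alone was used, and lower genes were 10.4% and 13.5% of all genes tested there. The cause of the other shifts was not tested, and the fits that left out libraries had fewer samples.

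With library size alone the Keap1 value was 0.26 and lost its call, and with limma-voom the Slc7a11 value was 3.60 and lost its call. Calls were gained by Gclm (1.01) and Txnrd1 (0.46) with DESeq2, and by Gclm (0.94) with the replicate block. The block changed no other call of a member. Without both libraries numbered 3, chosen after seeing the data, 10 members were called and calls were gained by Nfe2l2 (0.52), Nqo1 (0.59), Gclc (0.92), Gclm (1.30), Txnrd1 (0.68) and Srxn1 (0.996).

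In the fits that left out 1 library, the log2 fold change ran from 0.24 to 0.50 for Nfe2l2, 0.35 to 0.48 for Keap1, 1.47 to 1.99 for Hmox1, 0.14 to 0.44 for Nqo1, 0.31 to 0.81 for Gclc, 0.78 to 1.23 for Gclm, 3.54 to 4.50 for Slc7a11, 0.35 to 0.56 for Txnrd1, 0.50 to 0.92 for Srxn1 and 1.43 to 1.67 for Gsr. From 1 to 8 members were called higher and 0 lower. Leaving out LPS replicate 2, or control replicate 1 or 2, gave 1, followed by 2 without LPS replicate 1, 3 without control replicate 3 and 8 without LPS replicate 3.

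Counts of called list genes in those fits, higher and then lower, ran from 0 to 3 and 0 to 0 for NRF2 control genes, 2 to 12 and 1 to 1 for other NRF2 targets, 0 to 3 and 0 to 2 for glutathione supply, 0 to 5 and 1 to 4 for glutathione use, 2 to 5 and 0 to 2 for thioredoxin genes, 2 to 2 and 0 to 0 for heme genes and 0 to 2 and 0 to 2 for the ATF4 response. Over all genes, those fits called 379 to 1964 higher and 112 to 1426 lower, of 15531 to 15626 tested. NRF2 control genes called higher numbered 1 with upper-quartile factors, library size alone, no filter or limma-voom. They numbered 4 with the replicate block and 5 without both libraries numbered 3. Of all 15226 genes, 1050 were called higher with upper-quartile factors, 986 with library size alone and 1250 with limma-voom. With no filter it was 1114 of 24879. Among other NRF2 targets 14 were higher and 2 lower with the block, and 17 were higher and 2 lower without both libraries numbered 3. Glutathione supply genes called lower numbered 2 with upper-quartile factors, library size alone, DESeq2 or without both libraries numbered 3, and 3 with the block. Without both libraries numbered 3, 6 of them were higher, and of the genes using glutathione 8 were higher and 8 lower. Thioredoxin genes called lower numbered 2 with upper-quartile factors or library size alone, 3 with DESeq2 and 4 with the block or without both libraries numbered 3. Heme genes called higher numbered 3 with DESeq2, the block or without both libraries numbered 3. Those called lower numbered 1 with the block and 3 without both libraries numbered 3. ATF4 response genes called higher numbered 2 with DESeq2 size factors, DESeq2, the block or without both libraries numbered 3. Those called lower numbered 3 under upper-quartile scaling and 4 with library size alone, DESeq2, the block or without both libraries numbered 3. All genes called lower made up 10.4% with upper-quartile factors, 13.5% with library size alone and 11% with DESeq2. With the block and without both libraries numbered 3 it was 14.9% and 20.4%. Higher were 13.7% with DESeq2, 15.4% with the block and 22.6% without both libraries numbered 3. With DESeq2 size factors 1437 of 15226 genes were higher.

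Ranked by CPM without length, 6 of the 10 members changed their place in the control order, and Nqo1 moved from place 5 to place 9.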
